A study of Homo sapiens with 12 samples.

Results

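OCI-AML3, an established line of human acute myeloid leukaemia (AML) cells that carries mutant NPM1 and mutant NRAS, was treated for 24 h with ABT199 (venetoclax) and an ERK1/2 inhibitor together, and its polyadenylated RNA was set against that of cells given the solvent DMSO. The series holds 4 groups of 3 libraries: DMSO, ABT199 alone, ERKi (labelled compound 27) alone, and the combination (ABT199 + ERKi). The 6 libraries of the combination and DMSO were chosen by their treatment labels, and all 54628 gene rows of the count table entered, of which 15173 held enough reads to be tested. The labels state no doses. The title of the series asks how ERK1/2 inhibition overcomes venetoclax resistance through Drp1-dependent mitochondrial fission. All libraries come from 1 cell line. Whether the 3 libraries of a group came from separate cultures is not stated, and p-values here rest on a spread that may be technical.

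Venetoclax occupies the groove of BCL2, a protein that holds pro-apoptotic relatives in check on the outer mitochondrial membrane. The ERK kinases are the last of the RAS-RAF-MEK-ERK chain. They phosphorylate transcription factors that keep growth, cell cycle entry and the chain's own inhibitors expressed.

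The libraries held 19199296 to 21275065 counts each. On the first principal component of the 6 libraries, which carried 75.7% of the variance, the combination and DMSO libraries separated. The second carried 8.46% and set DMSO replicate 1 (at 34.6) apart from DMSO replicates 2 and 3 (at -20.7 and -12.4). Markers of an AML line were present, with 9 of 12 higher and 1 lower in the combination: PTPRC, which encodes the leukocyte protein CD45, stood at 507 ± 50.9 CPM in DMSO and 787 ± 30.2 CPM in the combination (SD, n = 3). Summed counts of 8 stromal markers (COL1A1, COL1A2, COL3A1, COL6A3, SPARC, POSTN, CCN1 and CALD1, chosen after their values were seen) were 134, 998 and 570 in the DMSO libraries, 660, 716 and 407 with venetoclax, 429, 298 and 804 with ERKi, and 31, 26 and 27 in the combination. POSTN and CCN1 had 0 counts in DMSO replicate 1 and in all 3 combination libraries. Of the whole stromal list, 13 of 23 members tested were called lower and 4 (COL6A2, TAGLN, IGFBP7 and VIM) higher in the combination, but 7 were called lower by limma-voom and 4 in a fit of the 6 libraries alone. The part of stromal RNA in the results below was not tested. Of 9 nuclear and small nucleolar RNA host transcripts used as a sign of RNA quality, 7 were higher and 1 (SNHG1) was lower. The member counts of this paragraph are to be read against 30.4% higher and 33.4% lower over all genes tested (calls are defined below). Of 1409 long noncoding RNAs 561 were higher and 112 lower.

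**Figure D1:**
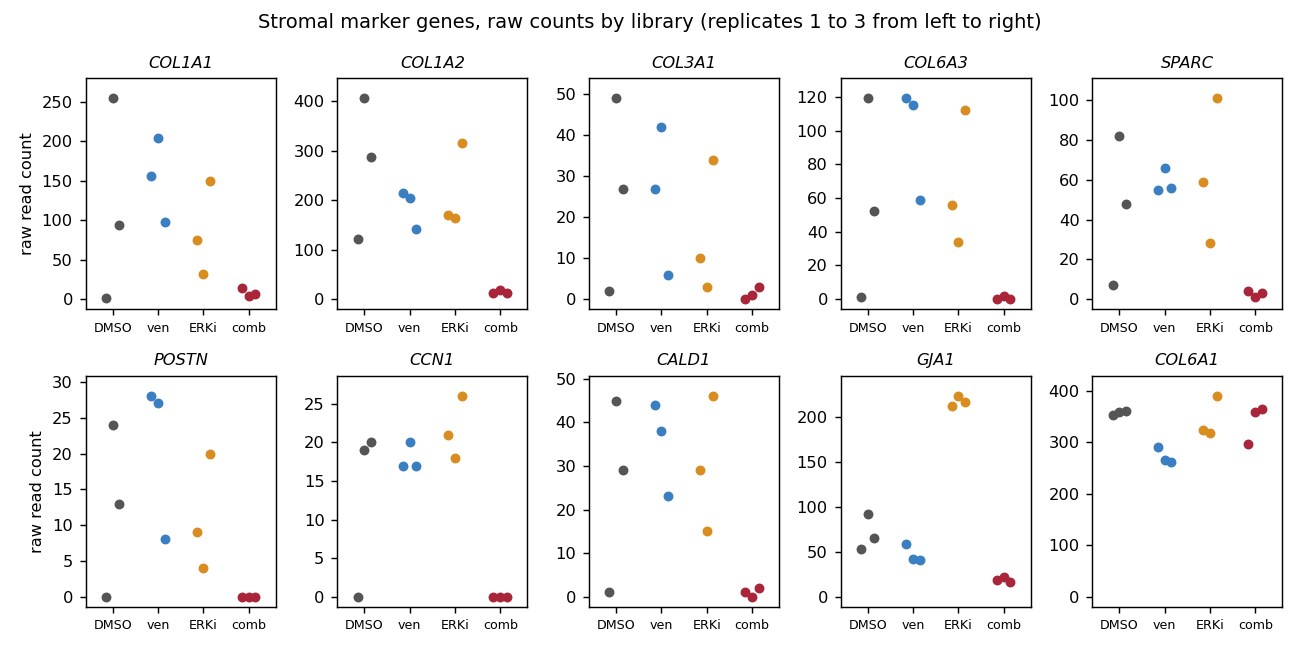
Raw read counts of 10 stromal markers in the 12 libraries, 1 panel per gene, with replicates 1 to 3 of each group from left to right. DMSO replicate 1 and the 3 combination libraries lie near 0 for COL1A1, COL6A3, POSTN and CCN1, whereas COL6A1 was read at a similar level in all groups.

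A gene was called when its Benjamini-Hochberg adjusted p from edgeR's quasi-likelihood test, over all 15173 genes, was under 0.05. The combination changed 9675 genes against DMSO, 63.8% of those tested: 4607 (30.4%) were higher and 5068 (33.4%) lower. Of these, 1525 (10.1% of genes tested) rose at least 2-fold and 1040 (6.85%) fell at least 2-fold, while 404 (2.66%) rose and 293 (1.93%) fell at least 4-fold. The median log2 fold change over all genes was -0.008, with 25th and 75th percentiles of -0.42 and 0.46. In 31.6% of genes all 3 combination libraries lay above all 3 DMSO libraries, and in 33.8% all lay below. Counts are shares of a library, so a change in CPM (counts scaled to the library's TMM-adjusted total) is relative to all other RNA of that library, and fewer cells of a type cannot be told apart from less RNA per cell. Without DMSO replicate 1, 4830 genes were called higher and 5255 lower.

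The direction of change differed with the kind and the level of the RNA. Of 12341 protein-coding genes, 3611 rose and 4778 fell (median log2 fold change -0.071), whereas of 1409 long noncoding RNAs 561 rose and 112 fell (median 0.48). Transcribed pseudogenes likewise had 138 higher and 35 lower among 345. Among 3703 genes with a mean of 1 to 10 CPM over the 6 libraries, 35.0% rose and 22.3% fell, and among 2302 genes at 100 CPM or more, 32.1% rose and 49.2% fell. Among 6797 genes at 10 to 100 CPM, 29.7% rose and 41.7% fell. More reads per gene give a test more power, so the shares called depend on level. The median log2 fold change also differed, at 0.309 under 1 CPM, 0.168 at 1 to 10, -0.083 at 10 to 100 and -0.118 at 100 CPM or more. The cause was not tested.

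**Figure D2:**
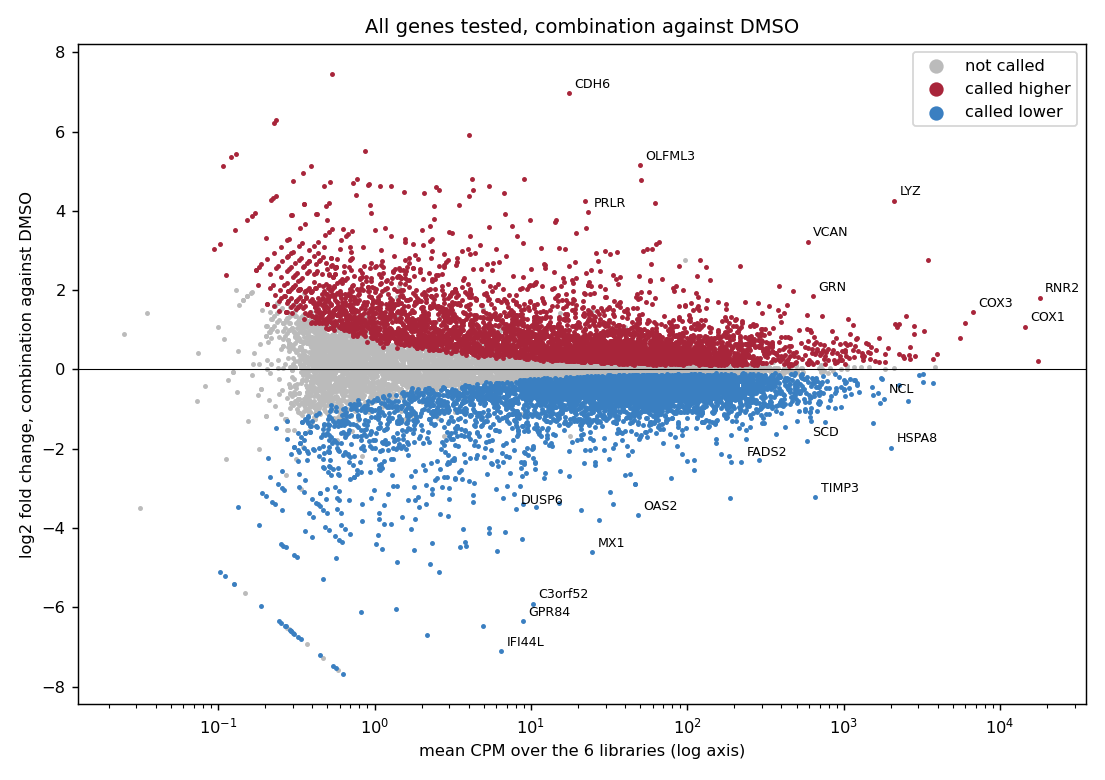
Each point is 1 of the 15173 genes tested, with its mean CPM over the 6 libraries (log axis) against its log2 fold change, combination against DMSO. LYZ and CDH6 lie far above and IFI44L and TIMP3 far below the line of no change, the mitochondrial transcripts COX1, COX3 and RNR2 lie high at the right, and the slanted rows at the lower left are genes with 0 counts in the combination, whose fitted values depend on the prior count.

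Below, gene groups are described by how many members were called and by the median log2 fold change of the members tested, to be read against the 30.4% higher and 33.4% lower over all genes. The share lower was larger at higher levels, at 41.7% for 10 to 100 CPM and 49.2% for 100 CPM or more. Lists were not matched for level, so a list of such genes with a share near these values does not stand out. Where 5 or fewer members of a group went one way most are named, and those names were taken after their values were seen. The single drugs share the DMSO libraries with the combination, so their values are set side by side and no overlap is drawn from them. Against DMSO, ERKi alone was called for 69.7% of genes (34.5% higher, 35.2% lower) and venetoclax alone for 0.402% (0.0198% higher, 0.382% lower). The combination differed from ERKi alone in 50.9% of genes (26.5% higher, 24.3% lower) and from venetoclax alone in 66.2% (32.1% higher, 34.2% lower).

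**Figure D3:**
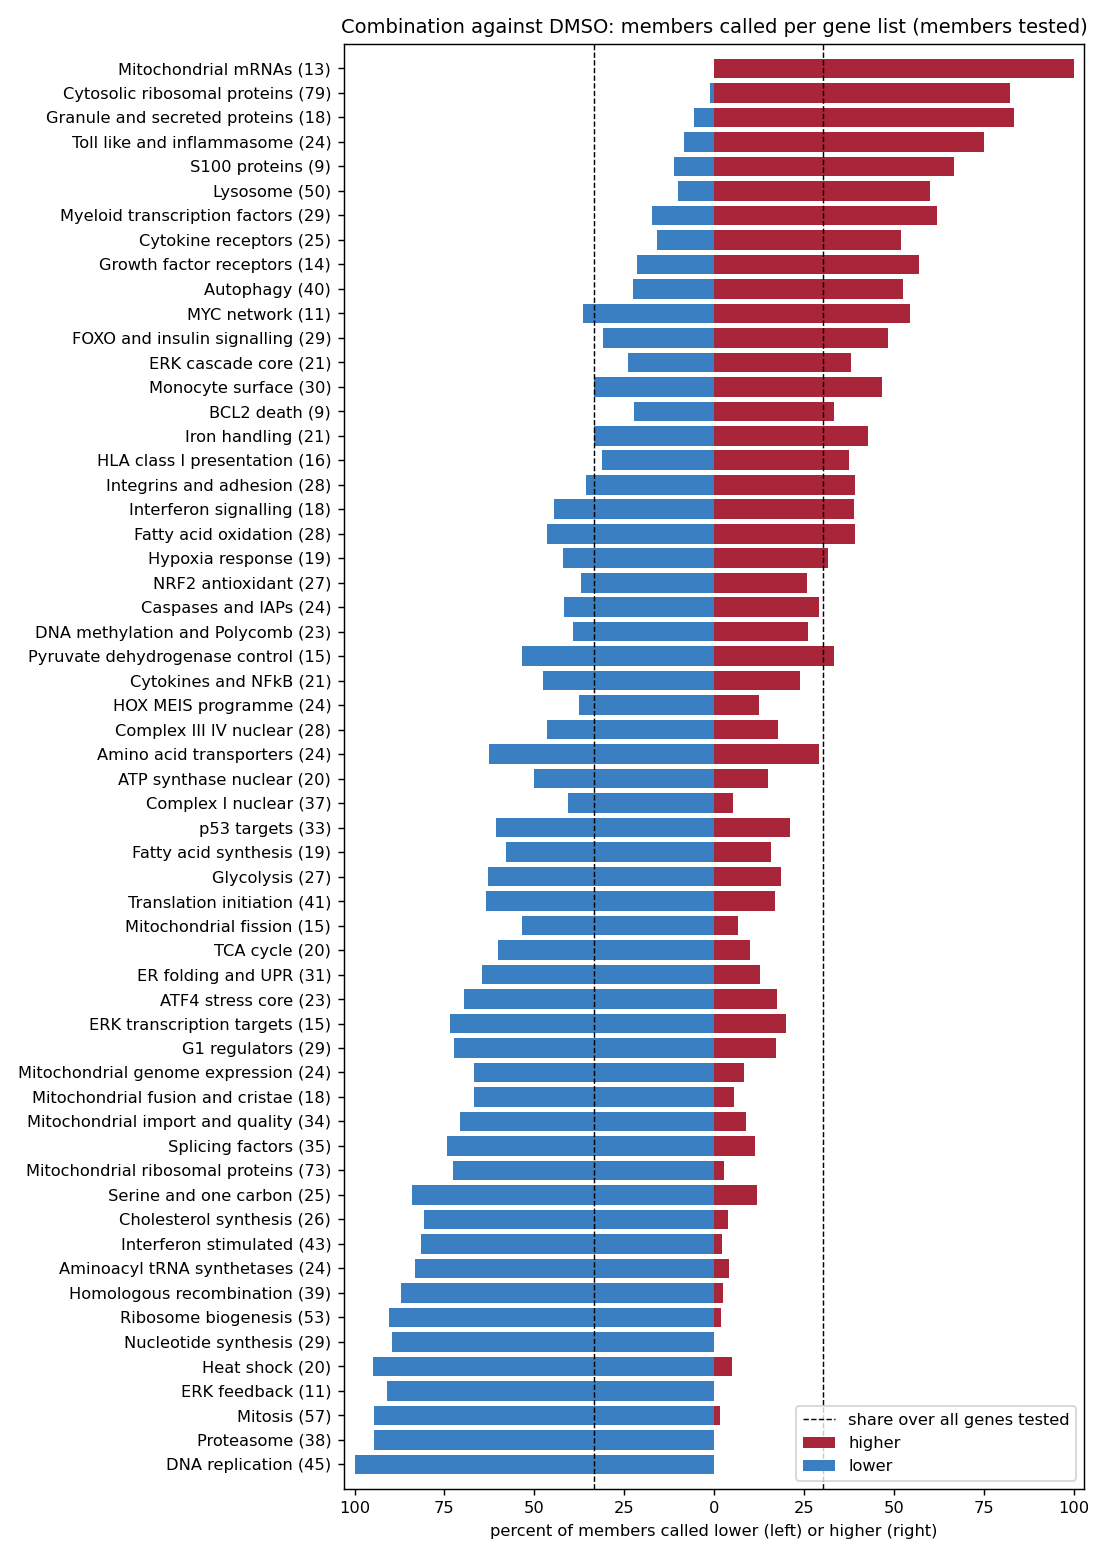
Percent of the members tested in each gene list (number in brackets) that were called higher (right) or lower (left) in the combination against DMSO, with dashed lines at the 30.4% and 33.4% found over all genes. DNA replication, proteasome and mitosis lists lie almost wholly to the left, and mitochondrial mRNAs and cytosolic ribosomal proteins almost wholly to the right.

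The ERK pathway's own brakes fell, and its transcription targets fell in most but not all cases. Of 11 feedback inhibitors tested, 10 fell and LZTR1 was not called (log2 fold change -0.057, adjusted p = 0.53). DUSP6 (chr12:89347235-89352501), the phosphatase that switches ERK off in the cytoplasm, was read at 15.4, 14.7 and 14.1 CPM in the DMSO libraries and 1.62, 1.19 and 0.995 CPM in the combination libraries. Every combination library lay far below every DMSO library (log2 fold change -3.53, SE 0.17, adjusted p = 2.46e-11). SPRY4 and SPRY2, which block RAS activation below growth factor receptors, went from 45.9 ± 2.37 to 24.7 ± 1.28 CPM and from 91.6 ± 1.87 to 58.2 ± 3.42 CPM (SD, n = 3; log2 fold changes -0.89 and -0.65), and RASA2, which speeds the turning off of RAS, fell by 0.89 on the log2 scale. Among 15 transcription targets, 11 fell, FOSL2, ETS2 and ELK3 rose, and SRF was not called, with a median of -1.43. ETV4, an ETS factor that ERK signalling sustains, was read at 16.6, 15.1 and 18.4 CPM in the DMSO libraries and 0.810, 0.921 and 0.838 CPM in the combination libraries (log2 fold change -4.28, SE 0.14, adjusted p = 3.03e-13). EGR1, an immediate early zinc finger gene, went from 15.1 ± 1.67 to 1.98 ± 0.353 CPM (log2 fold change -2.93). CCND1, the cyclin that starts the passage through G1, was read at 54.3, 56.9 and 60.1 CPM in the DMSO libraries and 6.17, 5.53 and 8.22 CPM in the combination libraries (log2 fold change -3.10, SE 0.11, adjusted p = 4.65e-13). PHLDA1 fell further with both drugs (2.66 ± 0.279 CPM) than with ERKi alone (11.2 ± 0.644 CPM; log2 difference -2.07, adjusted p = 6.5e-09). ETV4, ETV5 and EGR1 stood higher in the combination than with ERKi alone (log2 differences 0.86, 0.84 and 1.39), and DUSP6 stood lower (-0.81). FOSL2 and ETS2 rose, from 164 ± 8.55 to 498 ± 7.67 CPM and from 347 ± 13.2 to 687 ± 6.41 CPM. Outside that list, FOS, an immediate early gene of the AP-1 factor that ERK signalling is known to induce, was read at 30.1, 30.1 and 32.6 CPM in the DMSO libraries and 211, 213 and 201 CPM in the combination libraries (log2 fold change 2.75, SE 0.059, adjusted p = 2.55e-15) and stood at 159 ± 5.43 CPM with ERKi alone (log2 difference 0.39, adjusted p = 1.31e-05). FOSB, another AP-1 subunit, was read at 0.822, 1.51 and 1.04 CPM in the DMSO libraries and 14.6, 14.1 and 13.2 CPM in the combination libraries, a larger rise than the 3.88 ± 0.527 CPM of ERKi alone (log2 difference 1.85, adjusted p = 1.77e-07).

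The chain itself moved less. Of 21 core members, 8 rose and 5 (NRAS, MAP2K1 and PTPN11 among them) fell, with a median of 0.090. MAP2K1, which encodes MEK1, went from 58.8 ± 1.85 to 41.8 ± 2.33 CPM, and the exchange factor SOS2, which loads RAS with GTP, from 57.2 ± 4.78 to 81.2 ± 2.19 CPM. MRAS rose from 91.7 ± 8.11 to 128 ± 6.53 CPM, while with ERKi alone it stood below DMSO, at 64.9 ± 1.85 CPM (log2 difference of the combination from ERKi 0.98, adjusted p = 3.41e-09).

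Receptors for growth factors and cytokines rose more often than they fell. Of 14 receptor tyrosine kinases 8 rose, and TYRO3, IGF1R and EPHB4 fell (median 0.69). CSF1R (chr5:150053295-150113365), the receptor of macrophage colony stimulating factor, was read at 9.76, 6.69 and 7.63 CPM in the DMSO libraries and 60.98, 61.96 and 66.2 CPM in the combination libraries (log2 fold change 2.97, SE 0.098, adjusted p = 2.6e-13). LTK, a receptor kinase of the ALK family, went from 2.24 ± 0.142 to 42.3 ± 1.97 CPM, INSR from 79.3 ± 3.63 to 124 ± 3.02 CPM, and FLT3, which drives the growth of early myeloid cells, from 169 ± 4.79 to 296 ± 6.59 CPM. Among 25 cytokine receptors 13 rose, and IFNAR1, GHR, IL7R and TGFBR1 fell. The prolactin receptor gene PRLR (chr5:35048756-35230487) was read at 2.27, 2.50 and 3.65 CPM in the DMSO libraries and 44.9, 42.1 and 44.2 CPM in the combination libraries (log2 fold change 3.96, SE 0.17, adjusted p = 5.74e-12). ERKi alone gave 14.7 ± 0.373 CPM, below every combination library (log2 difference 1.57, adjusted p = 1.73e-07). CSF3R, the receptor of granulocyte colony stimulating factor, went from 73.7 ± 12.5 to 239.5 ± 7.28 CPM (log2 fold change 1.70). GHR, the growth hormone receptor, fell from 14.8 ± 1.25 to 8.41 ± 0.652 CPM, whereas with ERKi alone it stood above DMSO, at 45.97 ± 2.49 CPM (log2 difference of the combination from ERKi -2.45, adjusted p = 9.45e-12).

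**Figure D4:**
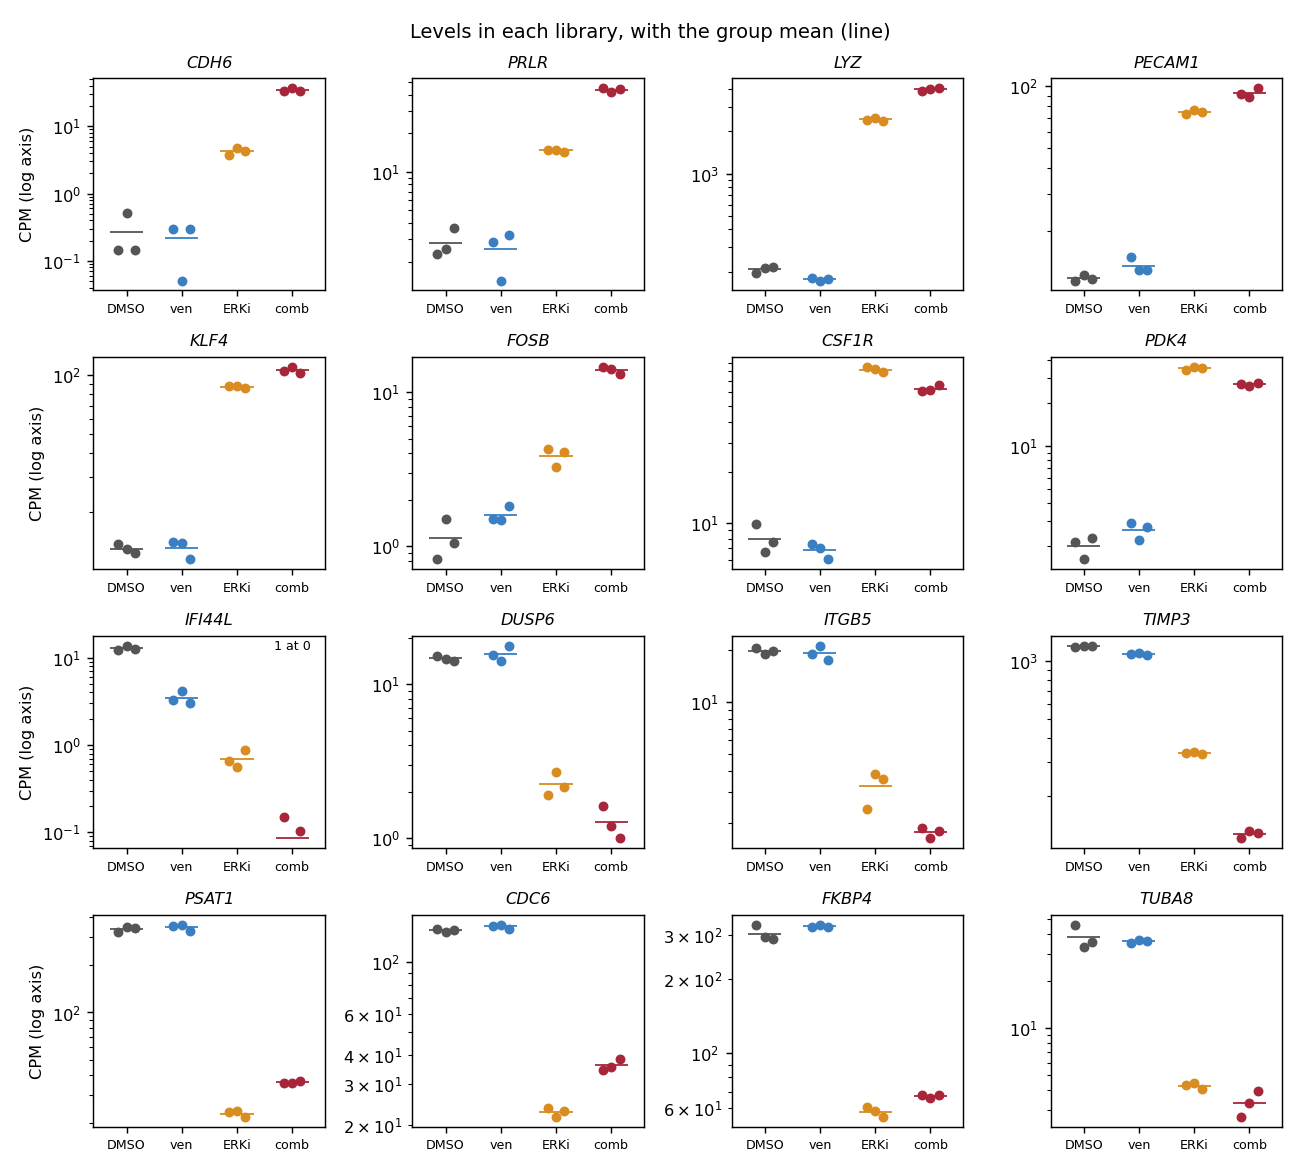
CPM of 16 genes in each of the 12 libraries (points, log axis) with the group mean (line). CDH6, PRLR and FOSB are highest in the combination, IFI44L steps down from DMSO over venetoclax and ERKi to the combination, and for CDC6 and PSAT1 the combination lies between ERKi and DMSO.

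Interferon-stimulated genes fell as a group. These genes encode antiviral effectors and are switched on when interferon receptors activate a complex with STAT2 and IRF9, which binds an element in their promoters. Of 43 tested, 35 fell and 1 rose (3 rose with DESeq2's size factors, and 2 without DMSO replicate 1, DMSO replicate 2 or combination replicate 1), with a median of -1.26. The promoters of 2 members from RefSeq (GRCh38.p14), running from 250 bases before the start of the gene to 50 after it, are shown because both are among the largest falls in the data. Capitals mark the core letters of the interferon-stimulated response element (TTTC, any 2 bases, TTTC), on either strand. IFI44L lies at chr1:78620198-78620497 and IFIT1 at chr10:89392373-89392672, both on the plus strand.
IFI44L: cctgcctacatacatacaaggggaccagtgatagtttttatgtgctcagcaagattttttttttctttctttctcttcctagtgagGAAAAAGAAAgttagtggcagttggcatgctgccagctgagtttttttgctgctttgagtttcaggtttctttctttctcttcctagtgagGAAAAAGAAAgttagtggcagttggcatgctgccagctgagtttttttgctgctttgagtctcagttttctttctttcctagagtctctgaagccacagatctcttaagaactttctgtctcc
IFIT1: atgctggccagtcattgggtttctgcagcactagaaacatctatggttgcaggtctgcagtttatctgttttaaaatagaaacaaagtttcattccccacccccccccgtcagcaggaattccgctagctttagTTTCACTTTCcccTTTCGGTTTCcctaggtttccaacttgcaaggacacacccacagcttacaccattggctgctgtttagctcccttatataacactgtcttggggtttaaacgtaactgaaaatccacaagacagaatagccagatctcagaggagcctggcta
The letters occur in 25 of the 36 promoters of tested members in the RefSeq table (69.4%) and in 996 of all 27305 promoters (3.65%).

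IFI44L (chr1:78620448-78646145) had the largest fall of the named genes, read at 12.1, 13.7 and 12.6 CPM in the DMSO libraries and 0.152, 0.000 and 0.105 CPM in the combination libraries (log2 fold change -7.10, SE 0.33, adjusted p = 1.37e-11, and -7.76 without combination replicate 1). MX1, a GTPase that traps viral particles, was read at 50.98, 46.4 and 44.9 CPM in the DMSO libraries and 1.92, 2.11 and 1.78 CPM in the combination libraries (log2 fold change -4.61, SE 0.11, adjusted p = 6.77e-15). OAS2 and OAS3, which make the messenger that activates RNase L, fell from 89.7 ± 1.23 to 6.98 ± 0.687 CPM and from 50.6 ± 1.80 to 3.66 ± 0.473 CPM. IFIT1, which binds viral RNA ends, fell from 10.2 ± 0.722 to 0.576 ± 0.409 CPM (log2 fold change -4.14), and by 4.89 on the log2 scale without combination replicate 3. EIF2AK2, the kinase that halts translation on double-stranded RNA, went from 104 ± 7.75 to 36.5 ± 1.09 CPM. Levels with the single drugs lay between these for several of the genes: MX1 stood at 15.9 ± 0.372 CPM with venetoclax and 2.99 ± 0.444 CPM with ERKi, and OAS2 at 39.6 ± 1.56 CPM and 14.6 ± 1.89 CPM. Venetoclax alone lowered 26 of the 43 members and ERKi alone lowered 31 and raised 7. Against ERKi alone the combination was lower in 29 members and higher in IFITM2, HERC5, CMPK2 and BST2. OAS1, lower in the combination than in DMSO and with ERKi, stood at 25.1 ± 3.78 CPM in DMSO, 34.3 ± 1.01 CPM with ERKi and 10.49 ± 1.06 CPM in the combination (log2 difference -1.71, adjusted p = 1.55e-08). For SAMD9L the same groups stood at 64.7 ± 7.83 CPM, 71.03 ± 1.06 CPM and 30.8 ± 0.142 CPM. With venetoclax alone OAS1 had 226, 282 and 202 raw counts, against 198, 216 and 186 in the combination. SAMD9L had 683, 659 and 696 raw counts with venetoclax and 609, 572 and 586 in the combination. The 1 member that rose was RSAD2, which encodes viperin, read at 8.41, 7.91 and 9.29 CPM in the DMSO libraries and 14.6, 13.2 and 15.7 CPM in the combination libraries (log2 fold change 0.76, SE 0.10, adjusted p = 6.47e-06). Genes that carry the signal were mixed, with 7 of 18 higher and 8 lower: IRF9 fell from 43.97 ± 4.98 to 21.8 ± 0.115 CPM, while STAT2 rose from 45.5 ± 1.41 to 80.2 ± 2.70 CPM and the receptor kinase TYK2 from 125 ± 15.8 to 265 ± 8.62 CPM. Genes of HLA class I presentation were mixed, with 6 of 16 members higher and TAP2, NLRC5, PSMB8, CALR and PDIA3 lower (3 lower without combination replicate 3, and PSMB8 rests on DMSO replicate 1). HLA-B and HLA-C were both higher, at log2 fold changes of 0.33 and 0.34. CALR had 20496, 17946 and 17834 raw counts in the DMSO libraries and 9478, 9118 and 9494 in the combination libraries.

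All 45 genes of DNA replication tested fell, with a median of -1.07. CDC6 (chr17:40287879-40304657), which loads the MCM helicase onto origins, was read at 138, 135 and 138 CPM in the DMSO libraries and 34.3, 35.4 and 38.4 CPM in the combination libraries (log2 fold change -1.93, SE 0.054, adjusted p = 3.16e-14). The helicase subunits MCM2, MCM3, MCM4 and MCM6 fell by 1.21, 0.90, 1.29 and 1.44 on the log2 scale, and MCM10, which activates the helicase, went from 149.7 ± 10.7 to 34.2 ± 2.11 CPM. With ERKi alone the list's median was -1.58, and 40 of 45 members were higher in the combination than with ERKi alone while ORC2 was lower. CDC6 stood at 22.7 ± 1.004 CPM with ERKi (log2 difference 0.67, adjusted p = 1.39e-07). Of the mitosis genes, 54 of 57 fell against DMSO with a median of -0.53, CDC25B rose, ASPM and NEK2 were not called, and 55 were higher than with ERKi alone, where the median against DMSO was -1.36. CDC20, which starts anaphase through the APC ubiquitin ligase, was read at 203, 164 and 169 CPM in the DMSO libraries and 128, 128 and 135 CPM in the combination libraries (log2 fold change -0.46, SE 0.066, adjusted p = 1.45e-05) and at 48.7 ± 1.06 CPM with ERKi (log2 difference 1.42, adjusted p = 3.49e-10). MAD2L1, of the spindle checkpoint, went from 183 ± 8.72 to 72.8 ± 4.55 CPM, CCNA2 from 199.7 ± 7.60 to 92.5 ± 0.534 CPM and CDK1 from 202 ± 6.70 to 98.6 ± 3.39 CPM.

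E2F factors, which switch on genes of S phase, and the DREAM complex, which holds mitotic genes off through the cell cycle homology region, are known to act at these promoters. A promoter of each kind is shown as a description: CDC6, at chr17:40287629-40287928 on the plus strand, with the E2F letters TTTGGCGC in capitals, and CDC20, at chr1:43358731-43359030 on the plus strand, with the letters TTTGAA of the homology region in capitals (both strands searched).
CDC6: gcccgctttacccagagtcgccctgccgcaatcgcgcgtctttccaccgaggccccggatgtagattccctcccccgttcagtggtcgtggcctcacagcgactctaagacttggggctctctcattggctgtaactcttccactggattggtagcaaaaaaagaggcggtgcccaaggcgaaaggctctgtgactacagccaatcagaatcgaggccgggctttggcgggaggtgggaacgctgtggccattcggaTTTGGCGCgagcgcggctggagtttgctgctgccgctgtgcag
CDC20: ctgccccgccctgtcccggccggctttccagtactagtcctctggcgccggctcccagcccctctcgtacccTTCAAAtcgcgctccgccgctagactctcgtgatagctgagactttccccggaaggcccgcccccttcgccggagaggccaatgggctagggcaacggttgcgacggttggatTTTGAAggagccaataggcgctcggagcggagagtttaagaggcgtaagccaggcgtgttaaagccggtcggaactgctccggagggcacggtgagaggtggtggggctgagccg
TTTGGCGC was found in 6 of the 38 promoters of replication genes in the RefSeq table (15.8%) and in 0.659% of all promoters, but in 3 of 38 (7.89%, against 0.553% of all) in the 250 bases before the start alone. The other E2F word searched, TTTCCCGC, was in 9 of 38 (23.7%) and in 1.66% of all. TTTGAA was found in 35 of 50 mitosis promoters (70.0%, against 15.4% of all), and CCAAT, the box bound by NF-Y, in 39 of 50 (78.0%, against 35.7% of all). In the 250 bases before the start alone, TTTGAA was in 25 of 50 (50%, against 13.6% of all) and CCAAT in 38 of 50 (76%, against 33% of all). TTTCCCGC was there in 7 of 38 replication promoters (18.4%, against 1.42% of all).

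Homologous recombination genes also fell, with 34 of 39 members lower and MUS81 higher. BRCA1 went from 179 ± 16.9 to 71.5 ± 4.11 CPM, CHEK1, the kinase that answers stalled forks, from 104 ± 0.842 to 41.4 ± 2.02 CPM, and RAD54B from 47.05 ± 2.73 to 11.6 ± 0.425 CPM. Among 29 regulators of G1, 21 fell and CDKN2A, CDKN2B, CDKN2D, RBL2 and TFDP2 rose. The number higher was 3 without DMSO replicate 1 and without any 1 of the combination libraries. CCNE1 fell from 36.9 ± 2.14 to 11.1 ± 0.402 CPM and the phosphatase gene CDC25A from 82.1 ± 1.40 to 27.4 ± 0.354 CPM. CDKN1A, which encodes the inhibitor p21, was read at 28.6, 26.3 and 23.4 CPM in the DMSO libraries and 10.53, 12.5 and 10.4 CPM in the combination libraries (log2 fold change -1.23, SE 0.089, adjusted p = 3.15e-09). ERKi alone had raised it to 46.6 ± 2.22 CPM, and the combination lay below that (log2 difference -2.07, adjusted p = 5.17e-11). With venetoclax alone CDKN1A had 328, 306 and 323 raw counts, against 593, 559 and 494 in DMSO and 208, 230 and 199 in the combination. MYC itself fell by 0.35 on the log2 scale, from 306 ± 25.4 to 240.2 ± 5.16 CPM, and stood at 162 ± 4.83 CPM with ERKi alone (log2 difference 0.57, adjusted p = 5.24e-07). Of 11 genes tested in the MYC network, 6 rose and 4 fell. MXD4 and MLXIP were among the rises, by 1.01 and 1.05. DNMT1 and its partner UHRF1, which copy DNA methylation after replication, went from 441 ± 13.8 to 273 ± 4.16 CPM and from 177 ± 4.80 to 70.2 ± 1.11 CPM, while TET2, TET3, EZH1, JARID2 and CBX7 were among the 6 of 23 methylation and Polycomb genes that rose.

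Most genes of nucleotide synthesis, amino acid supply and ribosome assembly fell. Of 29 genes of nucleotide synthesis 26 fell (median -0.66), and RRM2B, IMPDH1 and ADSS1 were not called. RRM2, the regulated subunit of ribonucleotide reductase, went from 287 ± 19.7 to 91.4 ± 4.23 CPM and PAICS, of purine synthesis, from 444 ± 8.53 to 174 ± 8.69 CPM. In the serine and one-carbon pathway 21 of 25 fell and 3, MTHFD2L and AMT among them, rose. PSAT1 (chr9:78297125-78330093), the aminotransferase of serine synthesis, was read at 325, 348 and 343 CPM in the DMSO libraries and 35.6, 35.6 and 36.8 CPM in the combination libraries (log2 fold change -3.23, SE 0.054, adjusted p = 1.09e-16). PHGDH, the entry enzyme of the same pathway, went from 184 ± 21.7 to 37.9 ± 1.02 CPM, and ERKi alone left 12.7 ± 1.43 CPM (log2 difference 1.57, adjusted p = 1.88e-09). The mitochondrial folate enzymes ALDH1L2 and SHMT2 fell by 2.55 and 1.44 on the log2 scale.

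Of 23 genes of the ATF4 core, which cells induce when amino acids run short, 16 fell and CEBPB, CEBPG, PPP1R15A and VLDLR rose (2 rose without DMSO replicate 1 and without any 1 of the combination libraries). DDIT4, an inhibitor of mTORC1, went from 30.6 ± 0.646 to 4.71 ± 0.529 CPM, GPT2 from 80.2 ± 5.64 to 27.1 ± 1.29 CPM and SESN2 from 35.2 ± 3.68 to 14.4 ± 1.45 CPM. ASNS, the asparagine synthetase, was not called (log2 fold change 0.47, adjusted p = 0.274). Of 24 aminoacyl-tRNA synthetases 20 fell and QARS1 rose. GARS1 was read at 359, 356 and 345 CPM in the DMSO libraries and 120.3, 124 and 124 CPM in the combination libraries (log2 fold change -1.52, SE 0.042, adjusted p = 2.87e-14), and IARS1, which charges isoleucine tRNA, went from 427 ± 23.3 to 182 ± 2.09 CPM. The promoter of IARS1 (chr9:92293648-92293947, minus strand) is shown with the letters TGATGNAAN, a core of the element read by ATF4 with C/EBP partners, in capitals on either strand.
IARS1: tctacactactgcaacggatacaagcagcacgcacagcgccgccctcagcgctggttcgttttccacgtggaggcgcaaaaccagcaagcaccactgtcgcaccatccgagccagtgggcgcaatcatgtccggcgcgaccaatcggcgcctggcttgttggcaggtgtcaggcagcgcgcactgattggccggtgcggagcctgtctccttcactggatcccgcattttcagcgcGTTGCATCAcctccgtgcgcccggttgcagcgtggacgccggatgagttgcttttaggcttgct
Those letters were found in 6 of the 19 synthetase promoters in the RefSeq table (31.6%) and in 3.67% of all promoters, but in 2 of 19 when only the 250 bases before the start were read. Amino acid carriers fell in 15 of 24 cases and rose in 7. SLC7A5, which carries large neutral amino acids, was read at 347, 300.2 and 306 CPM in the DMSO libraries and 61.6, 63.3 and 63.9 CPM in the combination libraries (log2 fold change -2.34, SE 0.057, adjusted p = 8.8e-15), and SLC38A1, a glutamine carrier, fell from 69.1 ± 9.61 to 10.8 ± 0.835 CPM, below its level with ERKi alone (37.8 ± 1.54 CPM; log2 difference -1.80, adjusted p = 9.03e-10).

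Ribosome biogenesis fell in 48 of 53 members, with UBTF higher and a median of -0.53. NCL, which encodes nucleolin, went from 2249 ± 12.9 to 1346 ± 29.6 CPM and NOLC1 from 458 ± 1.87 to 240.1 ± 3.56 CPM. Against ERKi alone 47 of the 53 were higher and the other 6 were not called. Cytosolic ribosomal protein genes went the other way: 65 of 79 rose, RPS26 fell, and the median was 0.38. RPS15 was read at 382, 292 and 283 CPM in the DMSO libraries and 545, 581 and 567 CPM in the combination libraries (log2 fold change 0.82, SE 0.082, adjusted p = 1.87e-07). These genes have many processed pseudogenes, among which the authors' counting may have split reads, so single members are uncertain. Of 41 translation initiation genes 26 fell and 7 rose, among them EIF2S1 from 196 ± 12.1 to 102 ± 4.64 CPM and EIF5A from 650.2 ± 39.4 to 377 ± 15.2 CPM. Splicing factors fell in 26 of 35 cases, and SRSF5, SRSF11, CLK1 and CLK4 rose.

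Chaperones and the proteasome were among the most uniform groups. Of 20 heat shock genes 19 fell and HSF1, which encodes the factor that induces them, rose by 0.46 (median -1.14). HSPA8 (chr11:123057489-123062462), the constitutive HSP70, was read at 3284, 3135 and 3194 CPM in the DMSO libraries and 818, 794 and 829.5 CPM in the combination libraries (log2 fold change -1.98, SE 0.036, adjusted p = 3.72e-16). HSPH1 went from 266 ± 11.2 to 61.1 ± 3.30 CPM, HSP90AA1 from 2201 ± 120.2 to 867 ± 17.3 CPM and FKBP4, a cochaperone of steroid receptors, from 303 ± 21.1 to 67.3 ± 1.16 CPM. ERKi alone left similar means for HSPA8 (731 ± 15.4 CPM) and FKBP4 (58.2 ± 2.83 CPM), with log2 differences of 0.16 and 0.21 between combination and ERKi. Of 38 proteasome genes 36 fell (median -0.57), with PSMD1 and PSMD14 of the regulatory particle going from 196 ± 10.3 to 93.3 ± 2.54 CPM and from 129 ± 2.45 to 62.9 ± 2.46 CPM. PSMB3 was called with counts of 85, 45 and 902 in the DMSO libraries and 22, 27 and 39 in the combination libraries. Its adjusted p was 0.373 without DMSO replicate 3. Of 31 genes of folding in the endoplasmic reticulum and its stress response 20 fell and P4HB, SYVN1, ERN1 and ERO1B rose. HSPA5, the chaperone BiP, went from 822 ± 8.96 to 389 ± 7.39 CPM and XBP1 from 221 ± 9.21 to 91.01 ± 4.34 CPM, while the sensor gene ERN1 rose from 17.4 ± 1.10 to 55.4 ± 2.67 CPM.

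Lipid synthesis fell, and genes of fatty acid oxidation went both ways. Cholesterol synthesis had 21 of 26 members lower, SCAP higher and a median of -0.78. The letters searched for the sterol element, TCACNCCAC, were in 1 of 20 promoters of these genes (5%) and in 1.15% of all. INSIG1, which retains SREBP, was read at 302, 322 and 316 CPM in the DMSO libraries and 107, 116 and 117 CPM in the combination libraries (log2 fold change -1.46, SE 0.047, adjusted p = 2.19e-13). Of 19 genes of fatty acid synthesis 11 fell and ELOVL1, ACSS2 and MLXIPL rose. The desaturase genes SCD, FADS1 and FADS2 fell by 1.81, 1.75 and 2.32 on the log2 scale. SCD was read at 825, 939.8 and 940.4 CPM in the DMSO libraries and 252, 259 and 261 CPM in the combination libraries. FASN went from 914 ± 65.2 to 441 ± 11.3 CPM and stood lower with ERKi alone, at 257 ± 4.50 CPM (log2 difference 0.78, adjusted p = 2.36e-09). In fatty acid oxidation 11 of 28 rose and 13 fell. CPT1A, which admits long chains to mitochondria, rose from 8.76 ± 0.657 to 28.1 ± 2.56 CPM and PPARG, a nuclear receptor of fatty acids, from 8.65 ± 0.666 to 29.3 ± 2.70 CPM.

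Most glycolysis genes fell, with exceptions among the kinases. Of 27 glycolysis genes 17 fell, and HK2, HK3, PFKL, PFKFB2 and PFKFB3 rose. LDHA went from 1029 ± 24.8 to 606 ± 17.3 CPM and the glucose carrier SLC2A1 from 75.8 ± 10.2 to 36.02 ± 1.97 CPM, while HK3 rose from 3.68 ± 0.222 to 15.8 ± 0.331 CPM against 5.34 ± 0.472 CPM with ERKi alone (log2 difference 1.56, adjusted p = 2.68e-08). PDK4 (chr7:95583499-95596516), a kinase that shuts pyruvate dehydrogenase, was read at 2.13, 1.60 and 2.28 CPM in the DMSO libraries and 27.4, 26.5 and 27.6 CPM in the combination libraries (log2 fold change 3.76, SE 0.11, adjusted p = 7.96e-14). PDK1, PDK2 and PDK3 rose by 0.27, 0.34 and 0.55 on the log2 scale, PDPR also rose (3 of the 5 rises were called without combination replicate 1 and without replicate 3), and the enzyme's subunits DLAT, PDHA1 and PDHX fell by 0.92, 0.42 and 0.48. In the tricarboxylic acid cycle 12 of 20 genes fell and IDH1 and IDH3G rose (4 rose without DMSO replicate 1), with FH from 233 ± 7.68 to 129.5 ± 3.88 CPM.

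Transcripts of the mitochondrial genome took a larger share of the libraries. Nuclear genes for mitochondrial ribosomes, protein import and genome expression mostly fell, and those of the respiratory chain and ATP synthase fell in part. The 13 mitochondrially encoded mRNAs made up 3.27%, 2.85% and 2.88% of counts in the DMSO libraries and 6.15%, 6.87% and 5.57% in the combination libraries. The means were 2.998% ± 0.234 and 6.20% ± 0.649 (SD, n = 3), a difference of 3.20 percentage points (two-sided exact permutation p = 0.1, the smallest that 3 against 3 allows). Shares were 3.07% to 3.24% with venetoclax and 4.40% to 4.96% with ERKi. All 13 were called higher, with a median of 1.02. COX1, a subunit of complex IV, was read at 10097, 8878 and 8966 CPM in the DMSO libraries and 19691, 21722 and 17350.2 CPM in the combination libraries (log2 fold change 1.07, SE 0.070, adjusted p = 9.64e-10) and COX3 at 4080.0, 3338 and 3372 CPM in the DMSO libraries and 9706, 10435 and 9231 CPM in the combination libraries (log2 fold change 1.44, SE 0.072, adjusted p = 3.24e-11). The mitochondrial ribosomal RNAs RNR1 and RNR2 went from 889 ± 16.1 to 6023 ± 128 CPM and from 7973 ± 6.31 to 27864 ± 1042 CPM, and they also exceeded ERKi alone (1243 ± 202 CPM and 12120.4 ± 826 CPM). The 10 most abundant genes together held 6.29%, 5.74% and 5.72% of counts in DMSO and 10.6%, 11.2% and 10.3% in the combination. With normalisation factors computed without mitochondrial and histone genes, 4611 genes were higher and 5060 lower.

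Of 37 nuclear genes of complex I 15 fell and NDUFA10 and NDUFS7 rose (6 rose without DMSO replicate 1, and 1 without DMSO replicate 2, DMSO replicate 3 or combination replicate 3), and of 28 for complexes III and IV 13 fell and UQCRH, COX4I1, COX7A2L, SCO2 and SURF1 rose (3 rose without combination replicate 3). CYCS, which encodes cytochrome c, went from 316 ± 23.1 to 150.1 ± 2.17 CPM. ATP synthase had 10 of 20 lower and ATP5MG, ATP5IF1 and ATPAF2 higher, but all 3 rises were lost without DMSO replicate 3 (adjusted p = 0.165, 0.151 and 0.0785) and without combination replicate 1 (0.061, 0.164 and 0.0552), and 1 rise was called without DMSO replicate 2 or combination replicate 2. Of 24 genes that copy, transcribe and translate the mitochondrial genome, 16 fell and POLG2 and MTIF3 rose (5 rose without DMSO replicate 1, and 1 without any other 1 of the 6 libraries). TFAM, which packs and transcribes mitochondrial DNA, was read at 154, 178 and 176 CPM in the DMSO libraries and 82.9, 88.7 and 92.04 CPM in the combination libraries (log2 fold change -0.95, SE 0.059, adjusted p = 5.13e-10). Mitochondrial ribosomal protein genes fell in 53 of 73 cases, with MRPL34 and MRPS21 higher (adjusted p = 0.0686 and 0.0927 without DMSO replicate 2, and 1 rise called without DMSO replicate 3 or combination replicate 2), and import and quality control genes fell in 24 of 34, with 3 higher, TOMM7 and SPG7 among them. HSPD1, the matrix chaperonin, went from 1086 ± 48.1 to 431 ± 17.1 CPM and TOMM40, the import pore, from 125 ± 19.5 to 69.8 ± 3.22 CPM.

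Fission and fusion genes both fell in part. Of 15 fission genes 8 fell and MTFR1L rose (2 rose without DMSO replicate 2 or 3; median -0.18). DNM1L (chr12:32679301-32745650), which encodes Drp1, the GTPase that constricts the outer membrane, was read at 127, 144 and 139 CPM in the DMSO libraries and 83.9, 87.4 and 87.5 CPM in the combination libraries. The groups did not overlap (log2 fold change -0.66, SE 0.052, adjusted p = 9.02e-09). The combination and ERKi alone did not differ beyond their spread for this gene (log2 difference -0.055, SE 0.052, adjusted p = 0.405). Its receptors moved less: MFF went from 49.3 ± 1.08 to 44.98 ± 1.06 CPM (adjusted p = 0.0372, but 0.0512 to 0.192 under 9 other settings), and FIS1 was not called, at 76.5 ± 15.3 CPM and 67.2 ± 1.65 CPM (adjusted p = 0.102), but was called without DMSO replicate 2 (adjusted p = 0.0216) and without DMSO replicate 3 (0.0245), and with no filter (0.0218). MTFP1, which promotes fission from the inner membrane, fell from 15.7 ± 1.24 to 6.04 ± 0.334 CPM. In the fusion and cristae list 12 of 18 fell and MIGA2 rose. OPA1 and MFN2, the GTPases of inner and outer membrane fusion, went from 180.1 ± 16.7 to 141 ± 3.67 CPM and from 164 ± 7.34 to 138 ± 5.85 CPM, and MFN1 was not called (log2 fold change -0.040, adjusted p = 0.693).

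Genes of the BCL2 family did not move as a group. Among pro-survival members, BCL2 (chr18:63123346-63320090), the target of venetoclax, was read at 279.5, 342 and 339 CPM in the DMSO libraries and 258, 255 and 261 CPM in the combination libraries (log2 fold change -0.31, SE 0.059, adjusted p = 0.000208). MCL1, a survival protein that venetoclax does not bind, went from 504 ± 28.2 to 456 ± 4.98 CPM (log2 fold change -0.14, SE 0.042, adjusted p = 0.00669), and its adjusted p was 0.0881 when the fit held the 6 libraries alone and 0.0531 with no filter. BCL2L1 was not called (log2 fold change -0.12, adjusted p = 0.254), and neither was BCL2L2. BCL2A1 was scarce, at 0.907 ± 0.311 to 0.0536 ± 0.0542 CPM (log2 fold change -3.96), and BCL2L10, also scarce, went from 0.0477 ± 0.0474 to 0.623 ± 0.241 CPM (log2 fold change 3.56, and 4.39 without DMSO replicate 3). Of the pro-death members, BMF (chr15:40087890-40108879), which encodes a BH3-only protein, was read at 13.5, 13.7 and 12.2 CPM in the DMSO libraries and 48.3, 43.4 and 47.4 CPM in the combination libraries (log2 fold change 1.82, SE 0.076, adjusted p = 3.54e-12), below its level with ERKi alone (114 ± 0.779 CPM; log2 difference -1.30, adjusted p = 3.75e-10). BBC3, which encodes PUMA, and BIK rose by 0.34 and 1.64. PMAIP1, which encodes NOXA, the partner of MCL1, went from 35.8 ± 3.43 to 12.02 ± 0.780 CPM, and BAX fell by 0.26 on the log2 scale. BCL2L11, whose protein BIM is marked for decay by ERK, was not called against DMSO (149 ± 5.99 CPM and 144 ± 3.43 CPM, adjusted p = 0.326), and it was lower than with ERKi alone (228 ± 8.34 CPM; log2 difference -0.67, adjusted p = 1.23e-08). BAK1, BID and BAD were not called either. Among 24 caspases and their inhibitors 7 rose (4 without combination replicate 1 and without replicate 3) and 10 fell, with CFLAR, the brake on caspase-8, from 89.1 ± 5.05 to 188 ± 7.03 CPM, and the death receptor gene FAS from 12.3 ± 1.27 to 4.22 ± 0.376 CPM.

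Targets of p53 lay on opposite sides of DMSO in the combination and with ERKi alone. Of 33 members 20 fell and 7 rose in the combination, with a median of -0.48, and with ERKi alone 17 rose and 9 fell, with a median of 0.20. Venetoclax alone lowered 3 of the 33 and raised 0, with a median of -0.14, against 0.382% lower over all genes tested. The combination was below ERKi alone in 25 members and above it in GADD45B, PLK3 and TP53I13. MDM2, the ligase that removes p53, was read at 139, 162 and 154 CPM in the DMSO libraries and 100.3, 96.1 and 102 CPM in the combination libraries (log2 fold change -0.61, SE 0.053, adjusted p = 3.25e-08) and at 179 ± 3.86 CPM with ERKi (log2 difference -0.85, adjusted p = 3.22e-09). BTG2 and SESN1 stood at 18.5 ± 1.02 CPM and 48.5 ± 2.51 CPM in the combination and at 45.6 ± 1.77 CPM and 82.4 ± 4.02 CPM with ERKi, and CDKN1A, described above, did likewise. GADD45B was an exception, rising from 15.3 ± 1.44 to 35.4 ± 0.750 CPM. With venetoclax alone BTG2 had 330, 342 and 375 raw counts, against 502, 496 and 486 in DMSO and 343, 353 and 365 in the combination. SESN1 had 1464, 1409 and 1406 raw counts with venetoclax, against 1385, 1629 and 1509 in DMSO and 903, 915 and 962 in the combination.

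Most myeloid transcription factors and granule protein genes rose, some beyond the level of ERKi alone and others short of it. Monocyte surface genes went both ways. Of 29 myeloid transcription factors 18 rose and KLF6, GFI1, RUNX3, ERG and BATF3 fell. KLF4 (chr9:107484852-107489769), a factor of monocyte maturation, was read at 13.6, 12.9 and 12.2 CPM in the DMSO libraries and 105, 111 and 102 CPM in the combination libraries (log2 fold change 3.04, SE 0.069, adjusted p = 4.26e-15). CEBPA went from 403 ± 21.98 to 809.6 ± 16.3 CPM, IRF5 from 61.3 ± 7.84 to 205 ± 9.87 CPM and IRF8 from 1119 ± 6.16 to 1739 ± 48.4 CPM, the last against 1146 ± 28.4 CPM with ERKi (log2 difference 0.60, adjusted p = 1.86e-09). ID1, which holds helix-loop-helix factors off DNA, rose from 8.41 ± 1.33 to 38.5 ± 0.641 CPM, and ERKi alone had 10.3 ± 1.44 CPM (log2 difference 1.90, adjusted p = 1.28e-09). Of 18 granule and secreted proteins 15 rose and CST7 fell (2 fell without DMSO replicate 1 or 3), with a median of 1.38. LYZ (chr12:69348381-69354234), which encodes lysozyme, was read at 196, 214 and 216 CPM in the DMSO libraries and 3855, 4040.5 and 4076 CPM in the combination libraries (log2 fold change 4.26, SE 0.048, adjusted p = 6.77e-19) and at 2434 ± 76.5 CPM with ERKi alone (log2 difference 0.71, adjusted p = 1.86e-09). The proteoglycan gene VCAN was read at 96.7, 119 and 126 CPM in the DMSO libraries and 1149.8, 991 and 1039.5 CPM in the combination libraries (log2 fold change 3.22, SE 0.079, adjusted p = 8.8e-15), GRN, the progranulin gene, went from 278 ± 42.7 to 999.6 ± 35.03 CPM, and ELANE, neutrophil elastase, from 20.7 ± 5.16 to 57.5 ± 10.3 CPM.

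Of 9 S100 genes 6 rose and S100A16 fell (not called without DMSO replicate 1 or combination replicate 2), and 7 of the 9 were lower than with ERKi alone, with the other 2 not called. S100A8, a subunit of calprotectin, was read at 2.32, 4.14 and 3.37 CPM in the DMSO libraries and 33.7, 36.02 and 37.8 CPM in the combination libraries (log2 fold change 3.45, SE 0.12, adjusted p = 5.27e-13) against 85.4 ± 2.15 CPM with ERKi (log2 difference -1.25, adjusted p = 1.24e-08). Monocyte surface genes had 14 of 30 higher and 10 lower, and against ERKi alone 13 were lower and CD93 and FCGR1A higher. CD86, a costimulatory ligand, went from 10.1 ± 0.582 to 20.2 ± 1.28 CPM and stood at 93.3 ± 7.78 CPM with ERKi (log2 difference -2.21, adjusted p = 1.84e-11). CX3CR1, the fractalkine receptor, was not called against DMSO (26.7 ± 0.498 CPM and 24.5 ± 1.44 CPM) although ERKi alone had 78.95 ± 3.14 CPM (log2 difference -1.69, adjusted p = 1.35e-11). CD93 and CCR2 rose from 114 ± 7.42 to 256 ± 3.14 CPM and from 62.5 ± 3.32 to 145 ± 5.49 CPM. Toll-like receptors and inflammasome genes rose in 18 of 24 cases, with CD14 and AIM2 lower (1 lower without DMSO replicate 1 and without any 1 of the combination libraries): TLR4 went from 54.1 ± 5.33 to 92.2 ± 2.27 CPM and NLRP1 from 57.9 ± 1.92 to 176 ± 9.03 CPM. Cytokine and NF-kB genes were mixed, with 10 of 21 lower. IL1B was read at 44.9, 43.1 and 41.3 CPM in the DMSO libraries and 9.06, 8.67 and 8.02 CPM in the combination libraries (log2 fold change -2.33, SE 0.081, adjusted p = 4.7e-13), below ERKi alone (26.99 ± 2.42 CPM; log2 difference -1.65, adjusted p = 3.75e-10). TNFAIP3, which ends NF-kB signalling, fell from 26.2 ± 1.74 to 4.43 ± 0.458 CPM, while CXCR4, the receptor that holds blasts in marrow, rose from 199.6 ± 14.8 to 561 ± 10.1 CPM, as did NFKBIA, NFKBIZ, RELA and BIRC3.

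**Figure D5:**
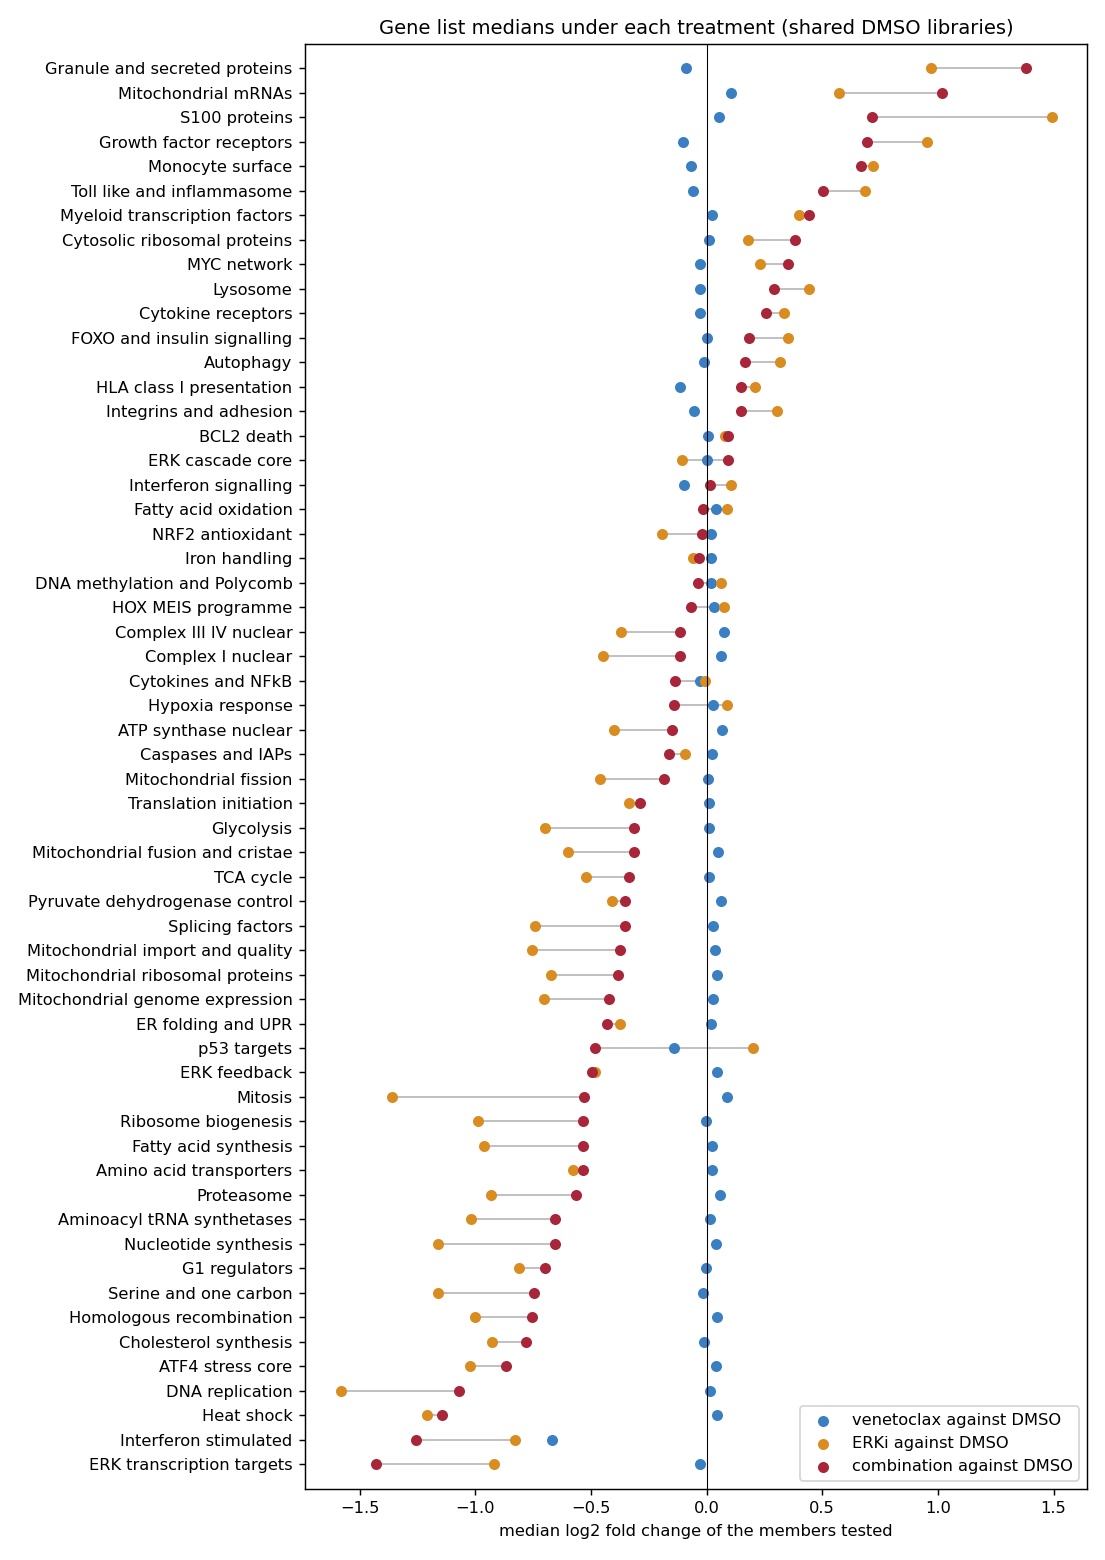
Median log2 fold change of the members of each list against the shared DMSO libraries with venetoclax, ERKi and the combination, with a grey line from ERKi to the combination. Venetoclax lies furthest from 0 for interferon-stimulated genes, the combination lies nearer 0 than ERKi for mitosis and DNA replication, and p53 targets lie on opposite sides of 0.

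Adhesion genes held some of the largest single changes. CDH6 (chr5:31193686-31329146), a cadherin of kidney and nervous system, was read at 0.145, 0.518 and 0.142 CPM in the DMSO libraries and 33.6, 37.05 and 33.2 CPM in the combination libraries. It had the largest rise of the named genes (log2 fold change 6.97, SE 0.26, adjusted p = 1.15e-12), and ERKi alone had 4.31 ± 0.507 CPM (log2 difference 3.005, adjusted p = 2.06e-09). Without DMSO replicate 2 the log2 fold change was 7.85. PECAM1, an adhesion protein of monocytes and endothelium, was read at 11.4, 12.2 and 11.6 CPM in the DMSO libraries and 91.95, 88.3 and 97.9 CPM in the combination libraries (log2 fold change 2.98, SE 0.066, adjusted p = 3.73e-15). ITGB7 rose from 10.1 ± 1.25 to 37.8 ± 1.82 CPM and ITGB5 fell from 19.7 ± 0.826 to 1.76 ± 0.125 CPM, and over the list 11 of 28 rose and 10 fell. The leukaemia programme of HOX and MEIS genes had 9 of 24 lower and HOXA9, HOXB3 and PBX2 higher. NPM1 went from 1882 ± 62.8 to 1204 ± 27.7 CPM and HOXA9 from 4.59 ± 0.441 to 7.90 ± 0.547 CPM, whereas MEIS1 was not called (log2 fold change 0.036, adjusted p = 0.57).

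Lysosome and autophagy genes rose more often than they fell. Of 50 lysosome genes 30 rose, and TPP1 and the proton pump genes ATP6V0A1, ATP6V1B2, ATP6V1D and ATP6V1H fell. PSAP, the precursor of sphingolipid activators, was read at 254, 234 and 234 CPM in the DMSO libraries and 538, 559 and 559 CPM in the combination libraries (log2 fold change 1.20, SE 0.042, adjusted p = 5.16e-13), and SGSH went from 21.1 ± 1.92 to 60.6 ± 1.06 CPM. The letters TCACGTGA, a palindrome read by TFEB and its relatives, were in 6 of 31 lysosome promoters (19.4%) and in 1.04% of all. The shorter CACGTG inside it was in 19 of 45 ribosome biogenesis promoters (42.2%) and in 7.43% of all, but in 7 of 45 (15.6%, against 6.49% of all) when only the 250 bases before the start were read. Of 40 autophagy genes 21 rose and 9 fell, with GABARAPL1 from 7.26 ± 0.955 to 24.5 ± 0.664 CPM and SQSTM1 from 76.6 ± 5.50 to 127 ± 4.50 CPM. Of 29 FOXO and insulin pathway genes 14 rose and 9 fell. TXNIP, a restraint on glucose uptake, was read at 396, 411 and 413 CPM in the DMSO libraries and 1029.5, 1045 and 1047 CPM in the combination libraries (log2 fold change 1.35, SE 0.038, adjusted p = 3.08e-14) and SESN3 went from 227 ± 34.6 to 609.6 ± 2.63 CPM, both above ERKi alone (log2 differences 0.58 and 0.57). Among iron genes 9 of 21 rose and 7 fell: the uptake receptor gene TFRC went from 240.2 ± 33.01 to 66.1 ± 4.46 CPM and FTL, ferritin light chain, from 1242 ± 229 to 2137 ± 49.9 CPM. CAT, which encodes catalase, rose from 219.7 ± 7.42 to 564 ± 7.32 CPM while PRDX1 fell from 162 ± 2.68 to 69.2 ± 2.52 CPM, in an antioxidant list with 7 of 27 higher and 10 lower. EPAS1, the hypoxia factor HIF-2 alpha, rose from 111 ± 4.27 to 358 ± 14.98 CPM, less than with ERKi alone (586 ± 18.5 CPM; log2 difference -0.71, adjusted p = 3e-09).

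The remaining large changes lay in genes of varied roles. OLFML3, a secreted olfactomedin-like protein, was read at 3.04, 1.60 and 3.56 CPM in the DMSO libraries and 97.01, 98.7 and 95.8 CPM in the combination libraries (log2 fold change 5.15, SE 0.14, adjusted p = 1.86e-14), and TIFAB, an inhibitor of TRAF6 signalling, went from 3.51 ± 0.438 to 41.6 ± 1.21 CPM. FGD2 and GUCY2D rose by 3.91 and 3.76 on the log2 scale, ADAMTS10 and ADAM28 by 3.71 and 3.37. Among abundant transcripts FRY, NOTCH2, PLD3 and ADGRA2 rose by 2.61, 2.09, 1.97 and 1.69. GPR84, a receptor of medium-chain fatty acids on myeloid cells, was read at 19.6, 17.1 and 16.2 CPM in the DMSO libraries and 0.152, 0.163 and 0.314 CPM in the combination libraries (log2 fold change -6.35, SE 0.23, adjusted p = 6.98e-13). C3orf52 went from 20.3 ± 1.69 to 0.332 ± 0.0833 CPM and TUBA8, an alpha tubulin, from 38.3 ± 6.87 to 3.31 ± 0.623 CPM. TIMP3 (chr22:32801705-32863041), an inhibitor of metalloproteinases, was among the abundant genes the most lowered by the rule, read at 1176, 1193 and 1198 CPM in the DMSO libraries and 121, 132 and 129 CPM in the combination libraries (log2 fold change -3.22, SE 0.042, adjusted p = 3.34e-18). ERKi alone left it at 335 ± 5.41 CPM (log2 difference -1.40, adjusted p = 2.05e-12). ANO4, a membrane scramblase gene, fell from 10.1 ± 1.92 to 0.627 ± 0.0311 CPM, also below ERKi alone (3.19 ± 0.358 CPM; log2 difference -2.33, adjusted p = 1.82e-07), and SYT2 fell by 4.57 on the log2 scale (5.18 without combination replicate 1). CKAP4 went from 475 ± 19.4 to 97.1 ± 6.81 CPM and TUBA1B from 2195 ± 296 to 1222 ± 19.7 CPM. COL1A2, which is among the 15 largest falls, belongs to the stromal genes that also differed between the DMSO libraries, with 121, 406 and 287 counts in DMSO and 12, 18 and 13 in the combination.

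Among long noncoding RNAs, LOC105373583 (chr2:120235196-120246109) was read at 0.725, 0.706 and 0.427 CPM in the DMSO libraries and 18.1, 16.2 and 17.8 CPM in the combination libraries (log2 fold change 4.80, SE 0.17, adjusted p = 4.89e-13). MIR124-1HG, the host transcript of a microRNA, went from 5.99 ± 0.382 to 45.9 ± 3.43 CPM, and LOC105375218 and LOC105371903 rose by 2.65 and 2.51. LOC105377732, LINC00504, OLMALINC and LINC02204 fell by 2.60, 2.42, 2.20 and 2.20 on the log2 scale. ERKi alone gave a similar mean for LOC105373583 (18.9 ± 1.05 CPM), and the combination and ERKi did not differ beyond their spread there (log2 difference -0.12, adjusted p = 0.392). The labels do not say whether counting used strand, so reads of these transcripts and of genes on the other strand may be mixed.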

How the data were processed

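Poly(A) RNA of OCI-AML3 cells was sequenced as paired ends, and per the submitters' processing notes HISAT2, HTSeq, DESeq2 and hg38 were used. The authors deposited 1 table of raw counts per gene symbol and library, with no other normalisation. From these counts edgeR 4.0.16 (R 4.3.3) kept genes passing filterByExpr (minimum count 10, minimum total 15), computed TMM factors and fitted a quasi-likelihood model to all 12 libraries (8 residual degrees of freedom). Adjusted p-values are Benjamini-Hochberg over 15173 genes. CPM are counts scaled to TMM-adjusted library totals. On simulated counts for 14344 tested genes, 77.6%, 89.6% and 100% of 1.5-fold, 2-fold and 4-fold changes were called, with 10 false calls. Only 67, 67 and 66 genes were changed at these folds, and all other genes kept their DMSO mean in every group. In the data 63.8% of genes were called, so these rates do not measure the false calls of the data. Alternatives were DESeq2 1.42.0, limma 3.58.1 (voom), other scaling and filters, a replicate block, fewer samples and each library left out. Most genes were named by fixed rules of size: the 15 largest called rises and falls at 5 CPM or more without overlap of groups, the 8 largest at 200 CPM or more, the 6 largest in CPM, the 4 largest long noncoding RNAs, up to 4 per list by adjusted p, up to 3 per list by the difference from ERKi, and a set of ERK, BCL2 and fission genes. Others, HLA-B, HLA-C, TET2, TET3, EZH1, JARID2 and CBX7 among them, lie outside these rules and were named with their values known. Some members counted in the lists are not reported here by name. Members and lists were chosen with earlier results of these data known. RefSeq GRCh38.p14, the build of hg38, gave positions, biotypes (14864 of 15173 symbols matched) and promoters. All replicate pairs differed by more than sampling noise (chi-square per degree of freedom 2.26 or more), most for DMSO replicate 1 (16.3 and 15.4 against the other two).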

Additional observations from a re-analysis of the deposited data

How the results depend on the processing

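The counts of genes called in the combination against DMSO stayed within 1.5 times of those given under all 8 alternatives and with each of the 6 libraries left out, from 4185 to 4830 higher and from 4490 to 5255 lower. The 2-fold counts ran from 1253 to 1860 higher and from 869 to 1216 lower. Same-numbered combination and DMSO libraries did not deviate together (correlations of their deviations -0.013, -0.0036 and 0.010), so pairing by number was not used. Some epithelial counts did go with the number: KRT19 had 0, 16 and 0 counts in the DMSO libraries, 0, 13 and 0 with venetoclax, 0, 27 and 0 with ERKi and 0 in each combination library. With the replicate block KRT19 and LCN2, not called without the block (adjusted p = 0.178 and 0.102), were called lower (0.0161 and 0.00113). With the replicate block 4552 genes were higher and 5005 lower. Over nuclear counts without the 10 most abundant genes, the difference in mitochondrial mRNA share was 3.93 percentage points, because the denominator is smaller, and leaving out 1 library gave 2.87 to 3.51. The list medians of interferon signalling, fatty acid oxidation, pentose phosphate, NRF2, DNA methylation and lymphoid genes, all near 0, changed sign under some settings, and the cause was not tested. Of the members named against the trend of their list, IFNAR1, CEBPG, VLDLR, RBL2, TFDP2, PDPR, ATP5MG, ATP5IF1, MTIF3, CD14, ATP6V0A1 and BIRC3 were no longer called under 5 or more settings. PSMB8, called lower at 13.6, 0.565 and 0.901 CPM in the DMSO libraries and 0.709, 1.14 and 1.10 CPM in the combination libraries, rests on DMSO replicate 1: without it the log2 fold change was 0.41 (adjusted p = 0.625), and leaving out each library gave -2.89 to 0.41. Leaving out 1 library also moved the log2 fold changes of BCL2A1 (to -4.84 without combination replicate 2) and, as given above, of BCL2L10, CDH6, IFI44L, IFIT1 and SYT2.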

Other observations

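Some genes had counts that jumped between libraries of 1 group. GSDMD, which encodes the pore-forming gasdermin D, was called higher (log2 fold change 3.58, SE 1.004, adjusted p = 0.00517) with 24, 16 and 12 counts in DMSO and 362, 74 and 143 in the combination, but venetoclax replicate 2 had 363 counts beside 16 and 9 in the other two. Without combination replicate 1 its log2 fold change was 2.79 (adjusted p = 0.035).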
